A study of Mus musculus with 6 samples.

Results

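Striatal projection neurons are the GABAergic output cells of the striatum, and 9 genes that are widely used as their markers were followed here in the substantia nigra (SN), where MitoPark mice were set against littermate controls. The genes were taken by name, and all 9 were found among the 24054 genes of the deposited table, where Drd1 is written Drd1a. RNA was sequenced from the dissected SN of 3 MitoParks and 3 littermate controls that were 16 to 17 weeks old by the labels. MitoParks (Dat+/Cre, TFAM LoxP/LoxP) lack the mitochondrial transcription factor Tfam in cells that express the dopamine transporter, because Cre is driven by the Dat locus, and they therefore also have only the other allele of Dat intact. The study's methods describe its control mice as Dat+/+ and TFAM+/LoxP, on a C57BL/6 background, so that the controls carry a floxed Tfam allele as well. None of the mice was treated.

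Dopamine reaches striatal projection neurons from the SN and acts on them through cAMP. Cells of the direct pathway carry the D1 receptor, which couples to a stimulatory G protein, and send their axons to the SN and the internal pallidum. Cells of the indirect pathway carry the D2 receptor together with the adenosine receptor Adora2a, and send their axons to the external pallidum. Their cell bodies lie outside the SN. Of the 9 genes, Drd1, Adora2a and Gpr6 encode receptors that raise cAMP, Adcy5 the adenylyl cyclase that makes it, and Pde10a a phosphodiesterase that breaks it down. Ppp1r1b encodes DARPP-32, a target of protein kinase A that inhibits protein phosphatase 1, and Rgs9 a regulator that shortens signalling by inhibitory G proteins. Rasd2 encodes the small GTPase Rhes, and Rasgrp2 an exchange factor that activates the GTPase Rap1. Several of these genes are also expressed by neurons and glia other than striatal projection neurons.

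Each library is 1 mouse, and the expected counts summed to between 8140777 and 10528602 per mouse. Values of single mice are given in the order of the replicate numbers. The labels name no batch, litter or sex for the single mice. Tfam was lower in MitoParks, at 32.9 ± 0.368 CPM (counts scaled to library size by the TMM method, mean ± SD, n = 3). Littermate controls had 43.4 ± 2.78 CPM (SD, n = 3), and the groups did not overlap. The same held in this direction for 2.33% of all tested genes. The fold change of Tfam was 0.760 (unadjusted p = 0.00565, edgeR), which did not pass the fold change cutoff of 1.5. The summed level of 9 dopaminergic markers stood at 444.1, 524.1 and 1462 CPM for the littermate controls. The MitoParks had 299.75, 542.4 and 537.3 CPM, so that littermate control 3 stood apart. Of these markers, Pitx3 had 0 counts in MitoPark 1. Slc6a3, the dopamine transporter gene, was the only gene of the lists used here to pass the cutoffs, with a log2 fold change of -2.30 (unadjusted p = 0.00895, edgeR). The littermate controls had 72.5, 65.1 and 384.2 CPM of Slc6a3, and the MitoParks had 13.2, 51.0 and 41.0 CPM. Leaving out littermate control 3 brought the change to -0.967 on the log2 scale. The 6 hypothalamic markers, all of them neuropeptide genes, summed to 1138 CPM in littermate control 1 and 1718 CPM in MitoPark 1, against 58.0 to 413 CPM in the other 4 mice. Summed levels over all 6 mice were 43.1 to 97.3 CPM for 7 cortical and hippocampal markers, 3.92 to 9.76 CPM for 3 cholinergic markers and 156 to 202 CPM for 7 striatal interneuron markers. These sums hide uneven members. Among the interneuron markers, Sst, Pvalb, Nos1 and Nkx2-1 had at least 18.1 CPM in every mouse, and Npy had 5.49 to 15.2 CPM. Chat had 4 to 20 counts per mouse and Lhx8 0 to 4. In the cortical and hippocampal list, Slc17a7 had 15.7 to 47.0 CPM, but Emx1 had 1 to 3 counts per mouse. In bulk tissue, fewer cells of a type cannot be told apart from less RNA per cell.

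The promoters of 7 of the 9 genes were taken from RefSeq (GRCm38.p6), as windows from 250 bases before to 50 bases after a start site. Ppp1r1b and Adora2a had no window. Promoters are shown because protein kinase A acts on transcription through the cAMP response element, TGACGTCA. Among 10 windows of the 7 genes, this element was found in 1, that of Gpr6, and in 1.79% of the 32851 windows of all genes. Its shorter core TGACG, searched on both strands and contained in the full element, was again found only in the Gpr6 window among these 10, and in 20.8% of all windows. The GC box GGGCGG, searched on both strands, was found in 8 of the 10 windows and in 35.7% of all windows. By gene, it was found for 5 of the 7, since Drd1, Pde10a and Rasgrp2 each had more than 1 window. The 10 windows held 56.7% to 80.0% G and C, where the median of all windows was 52.7%. The 250 bases upstream of the start site are shown for Gpr6, the only gene with the cAMP response element, and for Adcy5, the cyclase of the cAMP chain, which has 4 GC boxes. Adcy5 was chosen after the matches were seen, and 1 of the windows of Rasgrp2 held more GC boxes, 6. Capitals mark the cAMP response element in Gpr6 (chr10:41072291-41072540, minus strand) and the GC boxes in Adcy5 (chr16:35154614-35154863, plus strand). A match describes the sequence and does not show that a factor binds there.
Gpr6: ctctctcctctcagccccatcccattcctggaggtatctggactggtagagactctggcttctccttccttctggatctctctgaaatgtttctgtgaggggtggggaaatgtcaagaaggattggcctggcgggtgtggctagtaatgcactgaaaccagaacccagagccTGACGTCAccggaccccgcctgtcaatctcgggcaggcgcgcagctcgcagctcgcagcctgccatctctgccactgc
Adcy5: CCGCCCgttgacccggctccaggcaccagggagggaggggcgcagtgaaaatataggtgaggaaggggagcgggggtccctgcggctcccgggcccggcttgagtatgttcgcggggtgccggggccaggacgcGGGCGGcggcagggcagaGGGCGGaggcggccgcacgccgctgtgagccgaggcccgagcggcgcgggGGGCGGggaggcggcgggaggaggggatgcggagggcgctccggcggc

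The 9 genes fell into separate levels once read counts were scaled to transcript length. On the scale of CPM per kb of the longest protein-coding transcript, over all 6 mice, Rasd2 was highest at 24.9 ± 0.657 (SD, n = 6). Rgs9 followed at 19.9 ± 4.44, Adcy5 at 18.8 ± 3.26, Ppp1r1b at 17.8 ± 5.26 and Rasgrp2 at 16.7 ± 0.998 (SD, n = 6 for each). The ranges of neighbours in this order overlapped from Rasd2 down to Rasgrp2. Every mouse of Rasd2, from 24.0 CPM per kb, was nevertheless above every mouse of Adcy5, up to 23.6, and of Rasgrp2, up to 17.8. Pde10a stood by itself at 7.43 ± 0.463 CPM per kb (SD, n = 6), since its highest mouse, at 7.72, was below the lowest mouse of Rasgrp2, at 15.5. This order depends on the transcript length used, and which transcripts were expressed was not analysed. Without length scaling, the mean of Pde10a was 57.7 CPM, above Rasgrp2 at 38.3 and Ppp1r1b at 35.5 CPM. On that scale Adcy5, at 131.4 CPM, was above Rasd2, at 70.1 CPM.

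The 3 receptor genes had the lowest levels. Drd1 was at 1.77 ± 0.288 CPM per kb (SD, n = 6), and its highest mouse, at 2.23, was below the lowest mouse of Pde10a, at 6.59. Adora2a was at 0.931 ± 0.323 and Gpr6 at 0.756 ± 0.288 CPM per kb (SD, n = 6 for each). The ranges of Drd1 and Adora2a overlapped, and so did those of Adora2a and Gpr6. Within a mouse, however, the length-scaled level of Drd1 was above that of Adora2a in all 6 mice. The littermate controls had ratios of Drd1 to Adora2a of 3.81, 2.18 and 1.48, and the MitoParks 2.02, 2.11 and 1.13, so that the ratios of the 2 groups overlapped.

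**Figure D1:**
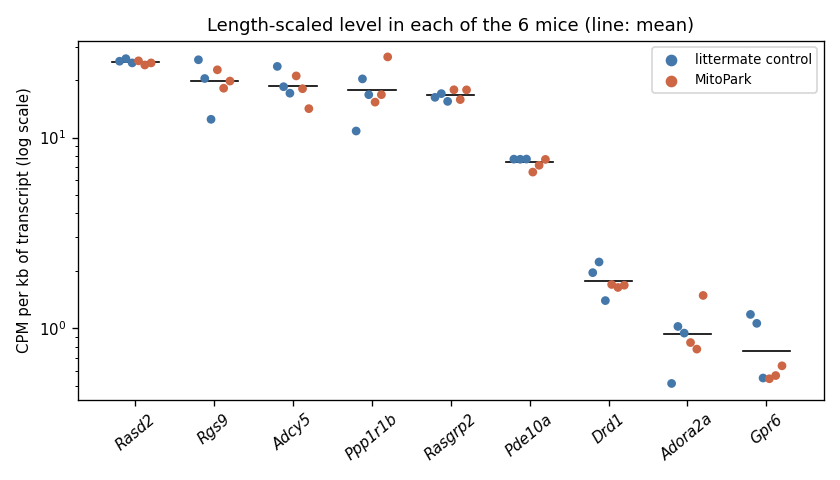
Level of each gene in CPM per kb of its longest protein-coding transcript (log axis), with 1 point per mouse, blue for littermate controls and red for MitoParks, and a line at the mean of the 6 mice. Rasd2, Rgs9, Adcy5, Ppp1r1b and Rasgrp2 share the upper level, between 10.8 and 26.5 CPM per kb, Pde10a lies below them, and Drd1, Adora2a and Gpr6 lie lowest.

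MitoParks were compared with littermate controls to ask whether these genes differ in the SN when dopamine neurons lose Tfam. None of the 9 genes passed both cutoffs, a fold change above 1.5 and an unadjusted p under 0.05 (edgeR's quasi-likelihood test on counts scaled by the TMM method). Over all 14568 genes tested, 0.378% passed the cutoffs as higher in MitoParks and 0.199% as lower, so that a count of 0 among 9 genes does not set them apart from other genes. None of the 9 genes reached an unadjusted p under 0.05 by edgeR, by DESeq2 or by limma-voom. By edgeR, only 161 of all 14568 genes tested had an unadjusted p under 0.05, so this does not set the 9 genes apart either. The adjusted p of each of the 9 genes was 0.999 (edgeR, Benjamini-Hochberg adjustment over all genes tested). The smallest adjusted p of all genes tested was also 0.999. Of the 9 log2 fold changes, 4 were above 0 and 5 below, with a median of -0.03, where the median of all genes tested was -0.0047. All 9 genes passed the filter on low counts, which asked for a mean above 1 CPM in at least 1 group, but Gpr6 lay close to it. With 3 mice against 3, an exact permutation test cannot give a p below 0.1. Of the 9 genes, 7 also stand in a pathway gene list that the study drew up from these samples, from genes it selected as upregulated. Their choice is therefore not independent of these data. Of these 7, Ppp1r1b, Adora2a, Rgs9 and Rasgrp2 had log2 fold changes above 0 in the fit used here, and Drd1, Pde10a and Adcy5 below 0.

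**Figure D2:**
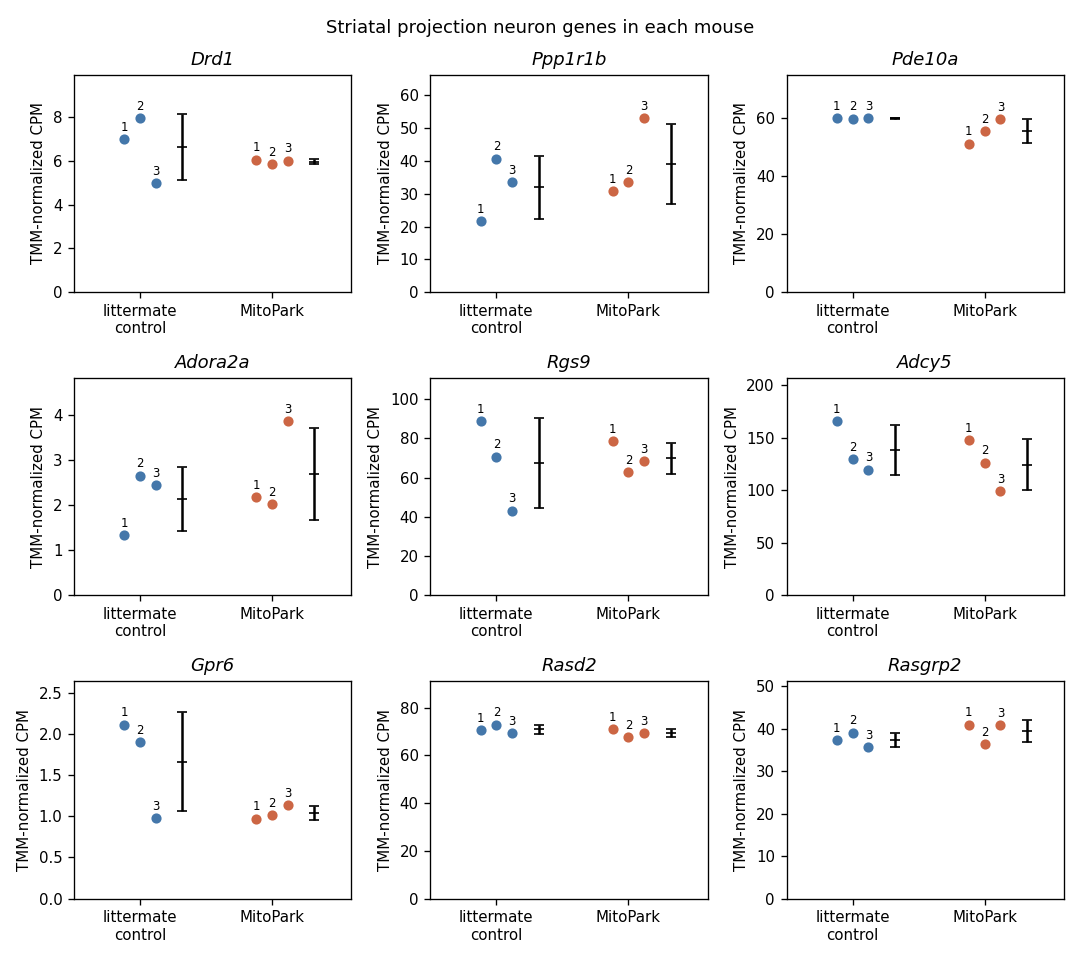
TMM-normalized CPM of each gene in each mouse, on linear axes that start at 0, with blue points for littermate controls, red points for MitoParks, the replicate number beside each point and the mean ± SD of 3 mice as a black bar. Rasd2 and Rasgrp2 are nearly level over the 6 mice, while Ppp1r1b, Adora2a, Rgs9 and Adcy5 differ between mice of the same group.

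Among the receptors, Drd1 had levels of 7.001, 7.96 and 4.997 CPM for the littermate controls, and the MitoParks had 6.07, 5.86 and 6.02 CPM. All MitoParks lay inside the range of the littermate controls. The log2 fold change of Drd1 was -0.15 with a 95% interval of -0.66 to 0.35 (unadjusted p = 0.513, edgeR), and it was 0.0011 without littermate control 2. These levels rest on 50 to 84 counts per mouse.

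Adora2a, the adenosine receptor gene of the indirect pathway, had levels of 1.33, 2.65 and 2.45 CPM for the littermate controls, and the MitoParks had 2.19, 2.02 and 3.86 CPM. Littermate control 1 was lowest and MitoPark 3 highest, and the other 4 mice lay between them. The log2 fold change was 0.31 with a 95% interval of -0.54 to 1.16 (unadjusted p = 0.431, edgeR), and it was -0.04 without MitoPark 3. The lowest mouse had 12 counts, for which counting error alone gives a 95% interval of 6.20 to 21.0 counts (exact Poisson).

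Gpr6, an orphan receptor of the indirect pathway that raises cAMP without added ligand, had the largest group difference of the 9 genes. It had levels of 2.11, 1.90 and 0.980 CPM for the littermate controls, and the MitoParks had 0.971, 1.01 and 1.14 CPM. Littermate controls 1 and 2 were above every MitoPark, but littermate control 3 lay among them. The log2 fold change was -0.66 with a 95% interval of -1.57 to 0.24 (unadjusted p = 0.133, edgeR; exact permutation test, p = 0.3). Without littermate control 3, the mouse with the most dopaminergic marker RNA, it was -0.94 and past the cutoffs (unadjusted p = 0.0476, edgeR). The same omission took the genes past the cutoffs among all genes tested from 55 to 142 higher and from 29 to 77 lower. Between 8 and 20 counts per mouse lie behind the values of Gpr6, and 8 counts have a 95% interval of 3.45 to 15.8 from counting alone. Its mean was 1.66 CPM in littermate controls and 1.04 CPM in MitoParks, the latter just above the filter.

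**Figure D3:**
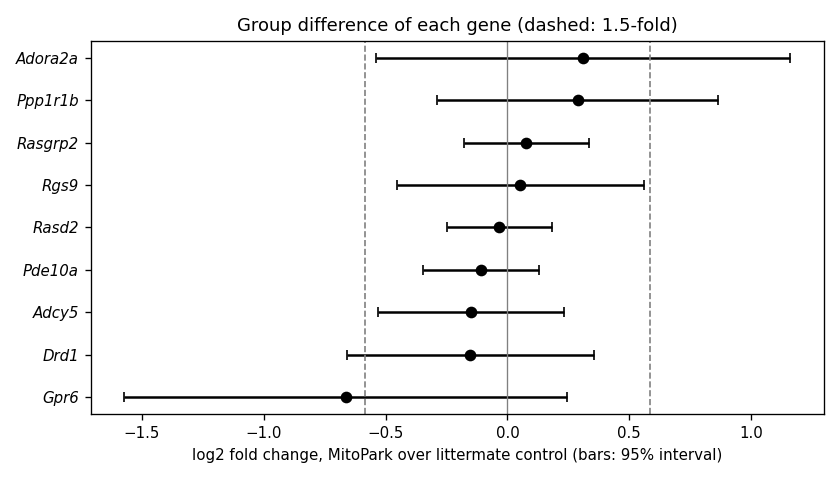
Log2 fold change of each gene, MitoPark over littermate control, with its 95% interval from edgeR's quasi-likelihood fit; dashed lines mark a 1.5-fold change in either direction. The intervals of Rasgrp2, Rgs9, Rasd2, Pde10a and Adcy5 lie between the dashed lines, and every interval includes 0.

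Of the enzymes of cAMP turnover, Adcy5 had levels of 165.6, 129.6 and 119.8 CPM for the littermate controls, and the MitoParks had 147.6, 126.5 and 99.4 CPM. The mice numbered 1 were the highest of both groups, and the groups overlapped. The log2 fold change was -0.15 with a 95% interval of -0.53 to 0.23 (unadjusted p = 0.398, edgeR), and without littermate control 1 it was 0.0039. Pde10a had levels of 59.9, 59.8 and 60.0 CPM for the littermate controls, and the MitoParks had 51.2, 55.6 and 59.7 CPM. It was the only one of the 9 genes whose groups did not overlap, which held for 2.33% of all tested genes in this direction (exact permutation test, p = 0.1). The lowest littermate control, at 59.8 CPM, was next to the highest MitoPark, at 59.7 CPM. The log2 fold change was -0.11 with a 95% interval of -0.35 to 0.13, and the test gave an unadjusted p of 0.334 (edgeR).

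Ppp1r1b had levels of 21.7, 40.7 and 33.6 CPM for the littermate controls, and the MitoParks had 30.7, 33.6 and 53.0 CPM. As for Adora2a, littermate control 1 was the lowest mouse and MitoPark 3 the highest. Between the groups, the log2 fold change was 0.29 with a 95% interval of -0.29 to 0.86 (unadjusted p = 0.289, edgeR), and it ranged from 0.0090 to 0.501 with each mouse left out in turn. Ppp1r1b overlaps the gene 1700003D09Rik on the other strand, which had 1 to 8 counts per mouse against 195 to 467 for Ppp1r1b. Whether counting used the strand is not given in the sources used here.

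Rgs9 had levels of 88.7, 70.7 and 43.2 CPM for the littermate controls, and the MitoParks had 78.5, 62.9 and 68.6 CPM. All MitoParks lay between littermate controls 1 and 3, which were the highest and the lowest of the 6 mice. Its log2 fold change was 0.05 with a 95% interval of -0.45 to 0.56 (unadjusted p = 0.819, edgeR), and it was -0.19 without littermate control 3 and -0.03 without MitoPark 1.

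The small GTPase gene Rasd2 and the exchange factor gene Rasgrp2 were the steadiest genes by the ratio of the highest to the lowest mouse. Rasd2 had levels of 70.7, 72.9 and 69.3 CPM for the littermate controls, and the MitoParks had 71.0, 67.5 and 69.2 CPM, so that the highest mouse was 1.08-fold above the lowest. Its fold change was 0.977 with a 95% interval of 0.841 to 1.135 (unadjusted p = 0.735, edgeR). Rasd2 was the only one of the 9 genes whose expected counts were not whole numbers in all 6 mice, which means that some of its reads were divided between it and other transcripts. Rasgrp2 had levels of 37.3, 39.1 and 35.6 CPM for the littermate controls, and the MitoParks had 40.9, 36.3 and 40.9 CPM. The gene overlaps Gm14965 on the other strand, which was not analysed here. Its fold change was 1.06 with a 95% interval of 0.883 to 1.26 (unadjusted p = 0.513, edgeR).

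For 5 of the 9 genes, Rasd2, Rasgrp2, Pde10a, Adcy5 and Rgs9, the 95% interval lay within a 1.5-fold change in both directions. For the other 4, Drd1, Adora2a, Gpr6 and Ppp1r1b, the interval reached past a 1.5-fold change in 1 direction, so that it leaves room for a change of that size. That direction was lower in MitoParks for Drd1 and Gpr6, and higher for Adora2a and Ppp1r1b.

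The genes also differed in how much mice of the same group varied. The variance within groups was 42.1 times that of counting alone for Rgs9, 40.04 times for Adcy5 and 30.2 times for Ppp1r1b, where the median of all tested genes was 3.90. Adora2a had a ratio of 2.84, Drd1 of 1.78, Pde10a of 1.38, Gpr6 of 1.11 and Rasd2 of 0.444, and Rasgrp2 lay between Gpr6 and Pde10a. The differences between mice of a group were therefore beyond counting error for Rgs9, Adcy5 and Ppp1r1b, and close to it for Gpr6, Pde10a and Rasgrp2. This ratio grows with the number of counts, so low values for Gpr6 and Adora2a also reflect their few counts.

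The genes beyond counting error, Rgs9, Adcy5 and Ppp1r1b, did not all vary in the same mice. Ppp1r1b was lowest in littermate control 1 and highest in MitoPark 3, whereas Adcy5 was highest in littermate control 1 and lowest in MitoPark 3. Rgs9 was highest in littermate control 1 as well, but lowest in littermate control 3. Adora2a had the same lowest and highest mouse as Ppp1r1b. Its ratio of 2.84 was below the median of 3.90, however, and its lowest mouse had 12 counts. The hypothalamic neuropeptide genes were highest in MitoPark 1 and littermate control 1, the mice with the most Adcy5 and Rgs9. The 5 oligodendrocyte markers summed to 6321, 9007 and 17034 CPM for the littermate controls, and the MitoParks had 8717, 11441 and 14485 CPM, so that they were lowest in these same mice. The part of these other cells in the levels of Adcy5, Rgs9, Ppp1r1b and Adora2a was not tested. With both mice numbered 1 left out, an alternative chosen after seeing the data, none of the 9 genes passed the cutoffs, and the median log2 fold change was -0.05.

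**Figure D4:**
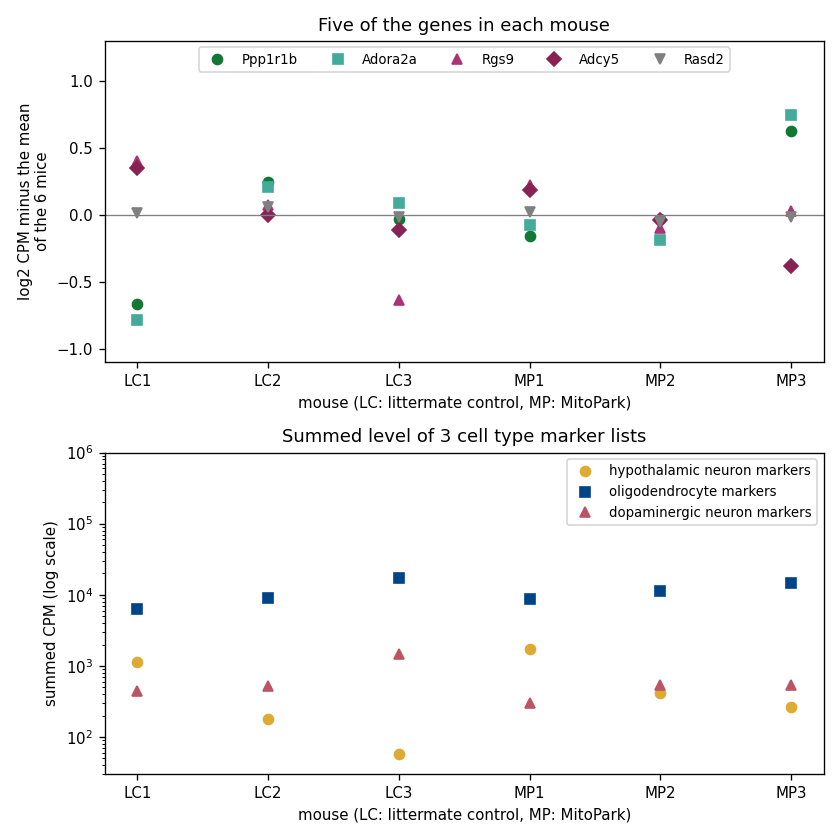
Upper panel, log2 CPM of 5 of the genes in each mouse, minus the mean of the 6 mice. Lower panel, summed CPM of 3 marker lists in the same mice on a log axis. Ppp1r1b and Adora2a are lowest in littermate control 1 and highest in MitoPark 3, where Adcy5 is highest and lowest, while Rasd2 stays near 0.

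Each of the 9 genes was also set against the mean of their standardised levels over the 6 mice. Pearson's r with this mean was 0.892 for Drd1 and 0.808 for Rasd2, but 0.111 for Adcy5, 0.155 for Adora2a and 0.194 for Ppp1r1b, so that the mean describes only some of the genes. The mean includes the gene itself, and the 6 mice are those of both groups. Of the 14559 other genes tested, the 12 most like this mean were Psme1, Tpd52l1, Pcdha11, Dlec1, Ccdc30, Fuz, Trim45, Ttc25, Mitd1, Chek1, Nxn and Atg13, with r between 0.955 and 0.994 over 6 mice. None of the 12 is in the lists of striatal, signalling or cell type genes used here. The 12 are the top of a ranking of many genes over only 6 mice, where unrelated genes can also reach a high r. Whether they are expressed together with the 9 genes was not tested.

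Other genes of striatal projection neurons were taken from a list of 28, of which 27 were tested. As for the 9 genes, 0 of the 27 passed the cutoffs and no unadjusted p from edgeR was under 0.05. Over all 14568 genes tested, 161 had such a p, so that a count of 0 does not set this list apart. The median log2 fold change of the 27 was -0.09, with 8 above 0 and 19 below, and 0.0129 without littermate control 1. The median of all genes tested was -0.0047. The 6 with the most reads were Gnal, Itpr1, Dgkb, Grm5, Pde1b and Ptpn5. Gnal encodes the G protein subunit that couples the D1 receptor to Adcy5, and was at 256.6 ± 4.85 CPM in littermate controls and 229.3 ± 20.8 CPM in MitoParks (SD, n = 3 for each), a log2 fold change of -0.16 with a 95% interval of -0.40 to 0.08. Its groups did not overlap, as held in this direction for 2.33% of all tested genes. The log2 fold changes were -0.06 for Itpr1, -0.14 for Dgkb, -0.14 for Grm5, -0.12 for Pde1b and -0.09 for Ptpn5, none of them past the cutoffs. In this list 15 of the 28 genes also stand in the study's own pathway gene list.

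The neuropeptides of the projection neurons, named here after their values were seen, did not pass the cutoffs either. Penk, the enkephalin precursor of the indirect pathway, was at 82.7 ± 12.2 CPM in littermate controls and 96.2 ± 10.7 CPM in MitoParks (SD, n = 3 for each), and Tac1, the substance P precursor of the direct pathway, at 75.2 ± 24.3 and 69.9 ± 11.3 CPM. Their log2 fold changes were 0.22 and -0.10. Drd2, which dopamine neurons express too, had levels of 14.7, 14.2 and 28.2 CPM for the littermate controls, and the MitoParks had 12.7, 15.5 and 13.8 CPM. It was highest in littermate control 3, as the dopaminergic markers were.

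**Figure D5:**
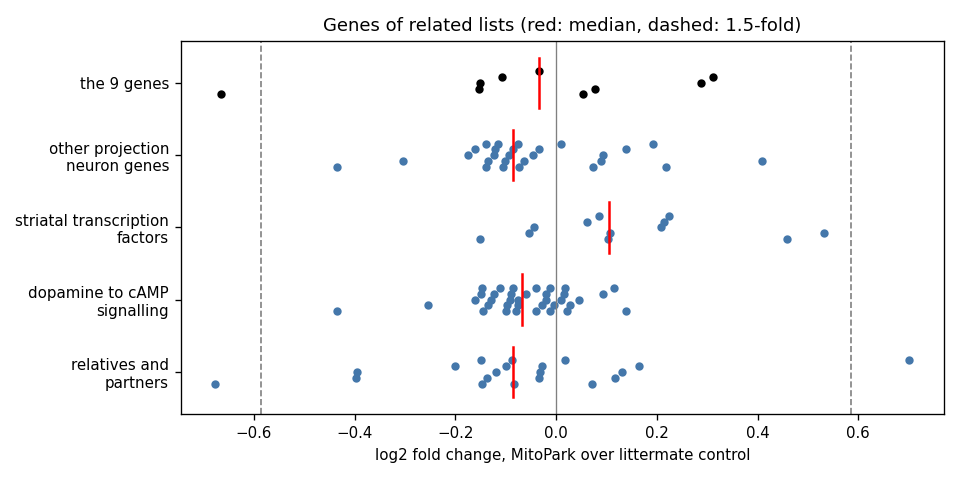
Log2 fold change, MitoPark over littermate control, of each tested gene of the 9 genes and of 4 related lists, with the median of each list in red and dashed lines at a 1.5-fold change. Medians lie between -0.09 and 0.11, and no gene of these lists passed the cutoffs of fold change and p together.

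The signalling chain from dopamine to cAMP and protein kinase A was followed in a list of 38 genes, among them Gnal, Drd2 and Pde1b of the previous list, of which 36 were tested. None passed the cutoffs and no unadjusted p from edgeR was under 0.05, the median log2 fold change was -0.07, and 9 were above 0 and 27 below. The median was -0.016 without MitoPark 3 and -0.087 without MitoPark 2, where the median of all genes tested was -0.0047 with all mice. Whether the signs differ from those of other genes was not tested. Of 21 close relatives and partners of the 9 genes, such as the adenosine receptor gene Adora1 and the Rgs9 partner gene Gnb5, 20 were tested. None passed the cutoffs, again with no unadjusted p under 0.05, and the median was -0.09. Striatal transcription factors, a list of 13 genes with 12 tested, had a median of 0.11, with 9 above 0 and 3 below and none past the cutoffs or with an unadjusted p under 0.05. DESeq2 and limma-voom called none of the genes in these lists either. Since only 161 of all 14568 genes tested had an unadjusted p under 0.05 by edgeR, counts of 0 do not set these lists apart.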

How the data were processed

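RNA from the dissected SN of 3 MitoParks and 3 littermate controls was sequenced after poly-A selection with strand-specific libraries. The values are expected counts per gene, which the authors estimated with RSEM 1.2.15 after mapping to UCSC transcripts by Bowtie2 2.1.0. They were deposited unnormalized. The submitters' processing notes name a human genome build for these mouse samples, so the build is not certain, and whether counting used the strand is not given in the sources used here. Groups came from the sample titles, and 0 columns belonged to no mapped sample.

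After rounding to whole numbers, a gene was kept where the mean of either group exceeded 1 CPM, and edgeR 4.0.16 (R 4.3.3) fitted a quasi-likelihood model of the groups after TMM normalization. Cutoffs were a fold change above 1.5 and an unadjusted p under 0.05, after the study's methods. Intervals of 95% use the fit's standard error and degrees of freedom. Exact two-sided permutation tests used log2(CPM + 0.1). Intervals of counts cover counting error only, and 3 counts correspond to between 0.284 and 0.364 CPM. Transcript lengths came from GENCODE M21. Alternatives used DESeq2 1.42.0, limma 3.58.1, other normalizations and filters, unrounded counts, a block on replicate number, and the omission of single mice. The procedure was tested on simulated data. No pair of mice in a group differed by as little as sampling noise. Nothing ties the mice to separate litters, so p-values measure the spread between these mice.

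The 9 genes and the gene lists were chosen with earlier results of these data known. By rule, the text names the 9 genes, Tfam and Slc6a3, the 6 other projection neuron genes with the most CPM, genes of the lists past the cutoffs, and the 12 genes most like the mean of the 9. Penk, Tac1, Drd2, Pdyn, Isl1, Scn4b, Foxp2, Ebf1, Adora1 and Gnb5 fall outside this rule and were named after their values were seen. Other lists are given by counts and medians, and cell type markers by summed CPM.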

Additional observations from a re-analysis of the deposited data

How the results depend on the processing

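Of 135 log2 fold changes of the 9 genes under 15 alternatives, 129 kept their direction and their side of the cutoffs, 5 changed sign and 1 passed the cutoffs. All 6 exceptions came from leaving out 1 mouse. When single mice were left out, the log2 fold change ranged from -0.28 to 0.0039 for Adcy5, from -0.039 to 0.50 for Adora2a, from -0.33 to 0.0011 for Drd1, from -0.19 to 0.30 for Rgs9 and from -0.94 to -0.46 for Gpr6. The sign changed for Adcy5 without littermate control 1 (0.0039), for Adora2a without MitoPark 3 (-0.039), for Drd1 without littermate control 2 (0.0011), and for Rgs9 without littermate control 3 (-0.19) and without MitoPark 1 (-0.03). The number of the 9 genes past the cutoffs ranged from 0 to 1, the 1 being Gpr6 without littermate control 3, and the cause was not tested.

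The mice share replicate numbers, but the labels do not say that equal numbers pair the mice, and the main fit left the numbers out. Deviations from the group means correlated at 0.307, -0.0738 and 0.244 for numbers 1, 2 and 3. Mice of unlike numbers were not correlated, so these values cannot decide whether the numbers pair the mice. With the replicate block, none of the 9 genes passed the cutoffs and their median was -0.03 on the log2 scale. With it, 83 of all tested genes were higher and past the cutoffs, where 55 were without it. The block also gave 1 gene past the cutoffs among relatives and partners, 1 among astrocyte markers, 3 among dopaminergic markers and 3 among hypothalamic markers. Without a filter on low counts, 107 genes were higher and 69 lower, with 1 astrocyte and 4 dopaminergic markers past the cutoffs. Total counts and limma-voom each gave 1 astrocyte marker, and limma-voom and DESeq2 each gave 2 dopaminergic markers. With both mice numbered 1 left out, chosen after seeing the data, 84 genes were higher, and 2 dopaminergic and 2 hypothalamic markers were past the cutoffs.

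When single mice were left out, the genes past the cutoffs ranged from 26 to 152 higher (26 without MitoPark 3, 142 without littermate control 3, 152 without MitoPark 2, 92 without MitoPark 1) and from 27 to 77 lower (77 without littermate control 3, 65 without MitoPark 2, 52 without littermate control 1). Over the same fits the number past the cutoffs ranged from 0 to 1 for other projection neuron genes, striatal transcription factors, dopamine to cAMP signalling, and the GABA, choroid plexus, cortical and hippocampal, oligodendrocyte, striatal interneuron and thalamic markers, from 0 to 2 for astrocyte markers and relatives and partners, from 0 to 3 for hypothalamic markers and from 1 to 5 for dopaminergic markers. Median log2 fold changes ranged from -0.12 to 0.0129 for other projection neuron genes, from -0.81 to 0.17 for cholinergic markers, from -0.24 to 0.13 for endothelial markers, from -1.55 to 3.46 for hypothalamic markers and from -0.53 to -0.19 for thalamic markers. The 8 to 34 counts of Gpr6 and Adora2a limit what these libraries can show.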

Other observations

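Some genes of the wider striatal list varied far more between mice than between groups. Pdyn, the dynorphin precursor of the direct pathway, had levels of 74.7, 23.1 and 7.84 CPM for the littermate controls, and the MitoParks had 69.4, 26.3 and 24.5 CPM. Isl1, a transcription factor of direct-pathway neurons, had levels of 30.5, 19.9 and 4.11 CPM for the littermate controls, and the MitoParks had 29.0, 14.9 and 19.5 CPM. Both genes were highest in littermate control 1 and MitoPark 1 and lowest in littermate control 3. The summed hypothalamic markers were also highest in those mice, at 1138 and 1718 CPM, and lowest in littermate control 3, at 58.0 CPM. Hypothalamic neurons express both genes as well. Rgs9 was also highest in these mice and lowest in littermate control 3. Other genes of the same lists ran the other way, and were lowest in littermate control 1 and MitoPark 1. In these mice Scn4b had 29.6 and 28.5 CPM, Foxp2 33.0 and 33.6 CPM, and Ebf1 12.3 and 9.23 CPM. Littermate control 3 had 83.7, 69.0 and 26.9 CPM of these genes. These genes were named after their values were seen, and the part of hypothalamic cells in their levels was not tested.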
